A study of Mus musculus with 6 samples.

Results

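The Ly49 receptors, encoded by the Klra genes, were followed in sorted thymic NKT cells through every array probe annotated to 10 listed genes of 19057 named on the array: Klra1, Klra3, Klra5, Klra6, Klra7, Klra8, Klra9, Klra16, Klra17 and Klra22. The annotation gave 17 such probes of 45263. The cells, mature and positive for CD44 and NK1.1, came from male C57BL/6 mice and were sorted into CD103+ and CD103- populations. Each population was measured on 3 arrays, which the series design calls biological replicates. No other group was measured, and the labels used here give no genotype, age or number of animals behind an array. The study concerns DOCK8 in NKT cells, and the comparison asks how CD103+ cells differ from CD103- cells.

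Ly49 receptors are lectin-like proteins of NK cells and of some T cells, NKT cells among them. Most bind MHC class I molecules and carry an inhibitory motif that recruits the phosphatase SHP-1, while a few lack it and signal through the adaptor DAP12, encoded by Tyrobp. Each cell expresses only some genes of the family, so that neighbouring cells differ in their receptors, and the gene content of the cluster differs between mouse strains. The genes are close copies of each other, and a short probe made for one can bind the transcript of another.

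CD103+ cells had more Klra1 signal than CD103- cells, by 2.66-fold, more signal of the Klra22 probe ILMN_2664429, by 2.29-fold, and more signal of the Klra16 probe ILMN_3005175, by 2.36-fold (n = 3 arrays each, adjusted p = 0.0199, 0.0199 and 0.0202, limma). Klra3, Klra7, Klra8 and Klra9, which encode Ly49C, Ly49G, Ly49H and Ly49I, did not pass the test on any of their probes. Klra5, Klra6 and Klra17 gave no signal above background on 3 or more arrays. The 13 probes that entered the test carried 7 gene names. Of the 13, 3 (23.1%) were higher in CD103+ cells and none was lower. Of all 17462 tested probes 1.18% passed, 0.928% higher and 0.252% lower. RefSeq lists Klra22 as a synonym of Klra1 in C57BL/6J and does not place Klra16 in the cluster, so the 3 calls need not be 3 genes. All 13 tested Klra probes were detected on all 6 arrays, so none entered the test through 1 population alone. Their median log2 difference, CD103+ minus CD103-, was 0.36, and that of all tested probes 0.04. A log2 difference of 1 is a doubling of the normalized signal.

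The 3 calls were lost when arrays of the same number were matched and when certain arrays were left out. Once the replicate number entered the fit as a block, limma passed 0 of the 13 probes, where 0.43% of all tested probes were higher. At an unadjusted p under 0.05, 7 of the 13 were then higher, where 10.5% of all tested probes were. Without the block it was 5 of 13, where 9.04% of all tested probes were higher. None of the 3 passed without CD103+ array 1, 2 or 3 or without CD103- array 3, while all 3 passed without CD103- array 1 or 2. Of all 17462 tested probes 206 passed with every array, and 52, 59 and 54 without CD103+ array 1, 2 or 3. Without CD103- array 1, 2 or 3 the counts were 857, 120 and 114. With 1 array left out the log2 differences were 1.28 to 1.58 for Klra1, 1.11 to 1.35 for Klra16 ILMN_3005175 and 1.11 to 1.29 for Klra22 ILMN_2664429, and matching by number leaves a difference as it is.

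The arrays differed in brightness and in the signal of markers of other cell types. The mean signal per array was 502 to 826 on CD103+ arrays and 277 to 526 on CD103- arrays, and CD103- arrays 2 and 3 were the dim ones. A comparison of the bright arrays alone sets all CD103+ arrays against CD103- array 1. With 1 array in a group it gives only the size of a difference. Itgae, which encodes CD103, was 4.73 log2 units higher in CD103+ cells, and Cd3e of the T cell receptor complex and Klrb1c, which encodes NK1.1, were detected on all 6 arrays. Of 10 markers of conventional NK cells, Ncr1, Eomes, Itgam, Khdc1a and Gzmc were not detected on any array. Of the other 5, Klri1, Klri2 and Fcer1g were higher in CD103+ cells, Klri2 and Fcer1g also when matched by number. Of all tested probes 0.928% were higher, and 0.43% when matched by number. Klri1 entered the test only through CD103+ cells. The summed normalized signal of these 5 was 12747 to 14017 on CD103+ arrays and 7471 to 8213 on CD103- arrays. Most of it came from Klre1 and Fcer1g. Klre1 did not pass (mean log2 12.67 in CD103+ and 12.47 in CD103- cells, adjusted p = 0.513, limma), and Fcer1g had means of 12.56 and 10.96. Of 11 measured markers of resident macrophages 10 were higher, and 7 when matched by number (0.928% and 0.43% of all tested probes). The sum over the 11 was 3193 to 4459 on CD103+ arrays and 365 to 383 on CD103- arrays. C1qa, C1qb, C1qc, Adgre1, Vcam1, Apoe and Sirpa were detected on no CD103- array. They entered the test only through CD103+ cells, where they are high, so their part of this count is no evidence. Of 3 measured markers of gamma delta T cells, Sox13 and Blk were higher, Blk also when matched by number (0.928% and 0.43% of all tested probes). Neither was detected on a CD103- array, so they too entered the test only through CD103+ cells. The sum over the 3 was 5834 to 6841 on CD103+ arrays and 4622 to 4671 on CD103- arrays. Most of this sum was Trgv4, which did not pass (mean log2 12.55 in CD103+ and 12.17 in CD103- cells, adjusted p = 0.263, limma). Which cells the marker transcripts came from, and the part of these marker groups in the Klra values, were not tested. In sorted bulk cells, more cells with a given Ly49 receptor and more transcript per cell cannot be told apart.

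**Figure D1:**
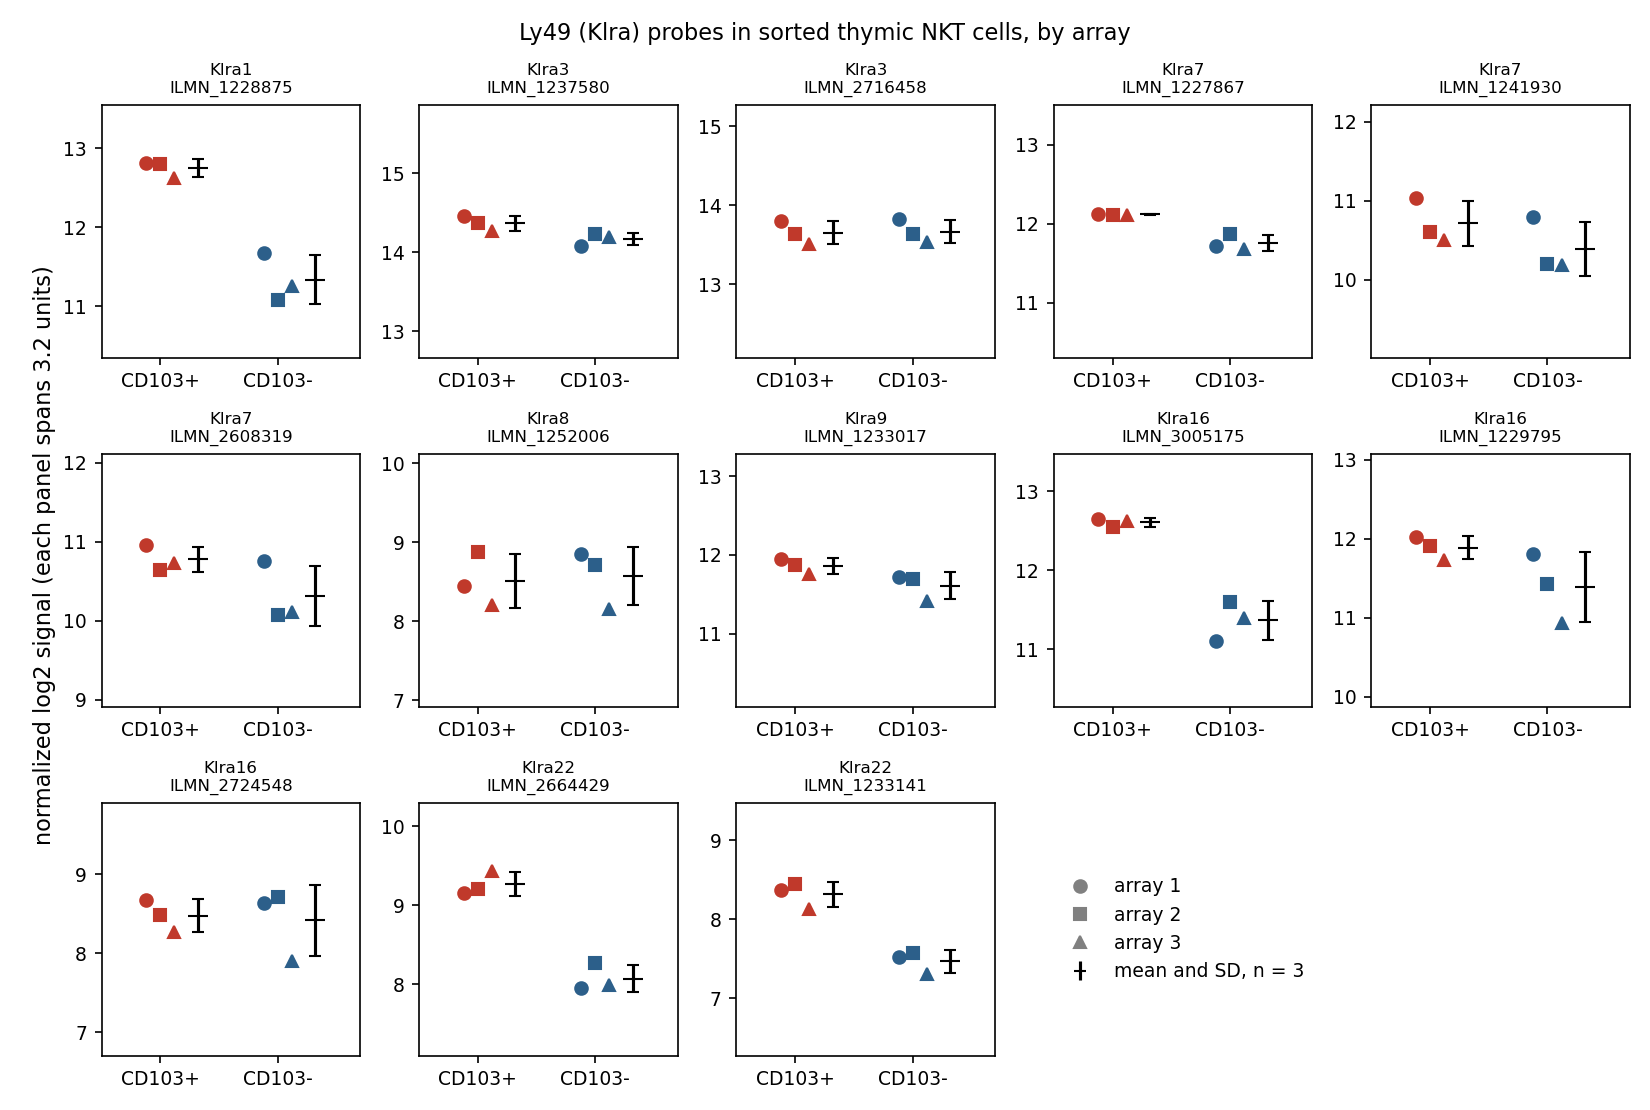
Normalized log2 signal of the 13 tested Klra probes on each array, CD103+ (red, left) and CD103- (blue, right), with 1 symbol per array number and the mean and SD beside them. Each panel spans the same number of log2 units, and the red and blue points lie farthest apart for Klra1, both Klra22 probes and Klra16 ILMN_3005175.

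Klra1 encodes Ly49A, an inhibitory receptor for MHC class I molecules of the H-2D locus of some other mouse strains. Its single probe, ILMN_1228875, had signals of 9619, 13452 and 6352 on CD103+ arrays 1, 2 and 3, against 3495, 837 and 956 on CD103- arrays 1, 2 and 3. After normalization the log2 values were 12.82, 12.81 and 12.62 in CD103+ cells and 11.68, 11.08 and 11.25 in CD103- cells. Every CD103+ array lay above every CD103- array, and the bright CD103- array 1 was the nearest to them. The log2 difference was 1.41 (SE 0.188, 95% interval 0.97 to 1.85, n = 3 per group, adjusted p = 0.0199). Matched by replicate number, limma gave an adjusted p of 0.0563 (1.97e-05 to 0.134 over 18 alternative ways of processing or leaving out arrays, with a difference of 1.07 to 2.49). Both 1.97e-05 and 2.49 came with arrays scaled to a common median, which moved the median of all tested probes to 0.96. Centred on all tested probes, that scaling gave an adjusted p of 0.131 and a difference of 1.53 (limma). On the bright arrays alone the difference was 1.07.

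Klra22 is the name of Ly49V, an inhibitory receptor described in another mouse strain. The RefSeq gene table for C57BL/6J has no entry of that name and lists Klra22 and Ly49v among the synonyms of Klra1. Probe ILMN_2664429 had log2 values of 9.16, 9.21 and 9.44 in CD103+ cells and 7.96, 8.27 and 7.99 in CD103- cells. The groups did not overlap, and CD103- array 1 was here the lowest of all. The difference was 1.20 (SE 0.159, 95% interval 0.82 to 1.57, n = 3 per group, adjusted p = 0.0199). Matched by replicate number, limma gave 0.0630, in a range of 1.38e-04 to 0.364 over the 18 alternatives. The other Klra22 probe, ILMN_1233141, had log2 values of 8.36, 8.44 and 8.13 in CD103+ cells and 7.53, 7.57 and 7.30 in CD103- cells. These groups did not overlap either, and the difference of 0.85 (SE 0.157, 95% interval 0.48 to 1.21) missed the threshold at an adjusted p of 0.0616 (0.00394 to 0.995 over 18 alternatives, of which 9 passed).

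Klra16 is Ly49P, an activating receptor described in other strains, and the RefSeq table does not place it among the Klra genes of the C57BL/6J cluster. Of its 3 probes 1 passed. ILMN_3005175 had log2 values of 12.64, 12.54 and 12.63 in CD103+ cells and 11.10, 11.60 and 11.40 in CD103- cells, a difference of 1.24 (SE 0.167, 95% interval 0.85 to 1.63, n = 3 per group, adjusted p = 0.0202). Matched by replicate number, its adjusted p in limma was 0.0630 (1.07e-04 to 0.335 over 18 alternatives). On the bright arrays alone the difference was 1.50, against CD103- array 1, which had the lowest value of this probe. ILMN_1229795 had 12.02, 11.91 and 11.73 in CD103+ cells and 11.81, 11.43 and 10.93 in CD103- cells, so that the groups overlapped at CD103- array 1. The difference was 0.50 (95% interval -0.05 to 1.05, adjusted p = 0.376). ILMN_2724548 had 8.68, 8.48 and 8.27 in CD103+ cells and 8.64, 8.71 and 7.90 in CD103- cells, which overlapped throughout, with a difference of 0.06 (95% interval -0.52 to 0.64, adjusted p = 0.922). The annotation assigns all 3 to 1 accession. The probe letters are not held in the files used here, so which Ly49 transcripts each probe binds was not tested.

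**Figure D2:**
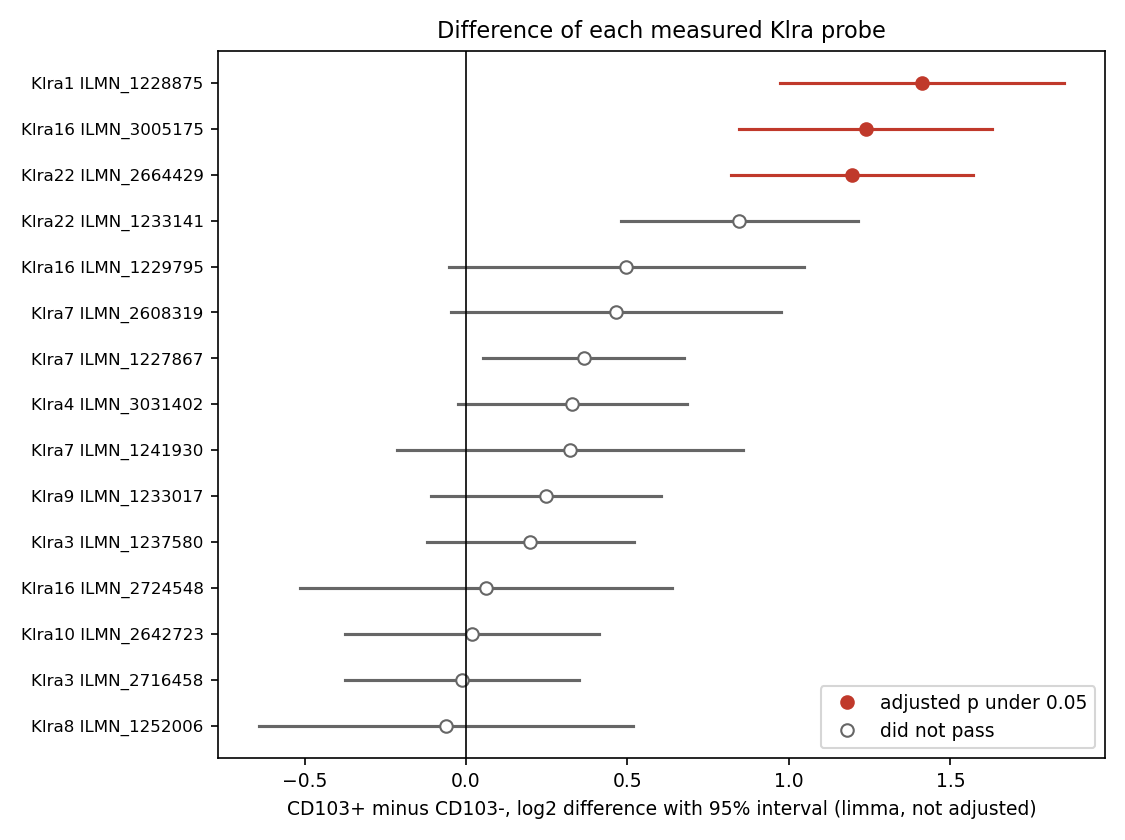
Log2 difference, CD103+ minus CD103-, of each measured Klra probe with its unadjusted 95% interval from limma, filled where the adjusted p was under 0.05. Klra1, Klra16 ILMN_3005175 and Klra22 ILMN_2664429 lie at 1.20 to 1.41, and the intervals of both Klra3 probes and of Klra8 and Klra9 include 0.

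Klra3 encodes Ly49C, an inhibitory receptor that binds H-2Kb, an MHC class I molecule of C57BL/6 mice. Probe ILMN_1237580 had log2 values of 14.45, 14.38 and 14.27 in CD103+ cells and 14.08, 14.23 and 14.20 in CD103- cells. The groups lay close together without overlap, with a difference of 0.20 (95% interval -0.12 to 0.52, adjusted p = 0.534) that fell below 0 under 4 of 18 alternatives. ILMN_2716458 had 13.80, 13.64 and 13.51 in CD103+ cells and 13.83, 13.64 and 13.53 in CD103- cells, nearly the same 3 values in both populations. Its difference was -0.01 (95% interval -0.38 to 0.35, adjusted p = 0.976). In folds this interval ran from 0.771 to 1.27, below the fold of Klra1.

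Klra9 encodes Ly49I, also an inhibitory receptor for H-2Kb. It had log2 values of 11.95, 11.87 and 11.75 in CD103+ cells and 11.72, 11.70 and 11.41 in CD103- cells. The CD103+ arrays were all above the CD103- arrays, by little, with a difference of 0.25 (95% interval -0.11 to 0.60, adjusted p = 0.489).

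Klra7 encodes Ly49G, an inhibitory receptor. Its 3 probes had positive differences of 0.36, 0.32 and 0.46, and none passed (adjusted p = 0.277, 0.547 and 0.374, limma, n = 3 per group). ILMN_1227867 had log2 values of 12.13, 12.12 and 12.11 in CD103+ cells and 11.72, 11.87 and 11.68 in CD103- cells, and these groups did not overlap. ILMN_1241930 had 11.04, 10.60 and 10.50 in CD103+ cells and 10.79, 10.19 and 10.19 in CD103- cells. ILMN_2608319 had 10.95, 10.64 and 10.73 in CD103+ cells and 10.75, 10.07 and 10.11 in CD103- cells. On both of these CD103- array 1 lay among the CD103+ arrays and the dim CD103- arrays 2 and 3 below them. The unadjusted 95% interval of ILMN_1227867, 0.05 to 0.68, lay above 0, while those of the other 2 probes, -0.22 to 0.86 and -0.05 to 0.98, included 0.

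Klra8 encodes Ly49H, the activating receptor by which C57BL/6 NK cells recognise a protein of mouse cytomegalovirus. Probe ILMN_1252006 had log2 values of 8.45, 8.88 and 8.21 in CD103+ cells and 8.85, 8.71 and 8.16 in CD103- cells. The groups overlapped throughout, with a difference of -0.06 (95% interval -0.64 to 0.52, adjusted p = 0.921). The other Klra8 probe, ILMN_2718242, was not detected on any array, with detection p of 0.190 to 0.923.

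Klra5 encodes Ly49E, an inhibitory receptor of fetal NK cells, and was detected on CD103- array 3 only, at a signal of 144 and a detection p of 0.0139. On the other 5 arrays its signal was 129 to 161. Klra6, which encodes the inhibitory receptor Ly49F, had signals of 126 to 177 and was not detected on any array. Klra17 encodes Ly49Q, known from plasmacytoid dendritic cells and other myeloid cells, and was not detected on any array either, with detection p of 0.134 to 0.647. For these 3 genes no fold is given, since Klra6 and Klra17 were at background on every array and Klra5 on all but CD103- array 3.

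Over the 13 tested probes 7 (53.8%) had groups that did not overlap, all with CD103+ higher, where 13% of all tested probes had CD103+ higher without overlap and 8.92% lower. The differences were positive for 11 of 13 (84.6%), against 55.8% of all tested probes. These 7 were both Klra22 probes and Klra1, Klra9, Klra3 ILMN_1237580, Klra7 ILMN_1227867 and Klra16 ILMN_3005175. Probes that bind several Ly49 transcripts are not independent of each other, so the count of probes is not a count of genes.

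A ratio of 2 probes on 1 array divides out any factor common to that array, and 11 such ratios were compared between the populations. The numerators were probes that had passed and the denominators probes that had not, so this choice fixes the direction of the ratios, which are given as a description. On each array the 3 called probes were set against the brightest probe of Klra3, Klra7 and Klra9, and the called Klra16 probe also against the other Klra16 probes. The log2 ratio of Klra1 to Klra3 was -1.64, -1.57 and -1.65 on CD103+ arrays and -2.40, -3.15 and -2.94 on CD103- arrays. The CD103+ arrays lay close together while CD103- array 1 lay between them and the other CD103- arrays. This ratio was 1.21 log2 units higher in CD103+ cells, and that of Klra1 to Klra7 was 1.05 and of Klra1 to Klra9 1.16 units higher. Between the Klra16 probes ILMN_3005175 and ILMN_1229795 the ratio was 0.62, 0.64 and 0.89 on CD103+ arrays and -0.71, 0.17 and 0.47 on CD103- arrays. All 11 ratios were higher on every CD103+ array than on any CD103- array, by 0.74 to 1.21 log2 units. In the authors' values the same ratios were 0.69 to 1.66 units higher, and in the raw signals, which keep the background, 0.22 to 1.54.

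**Figure D3:**
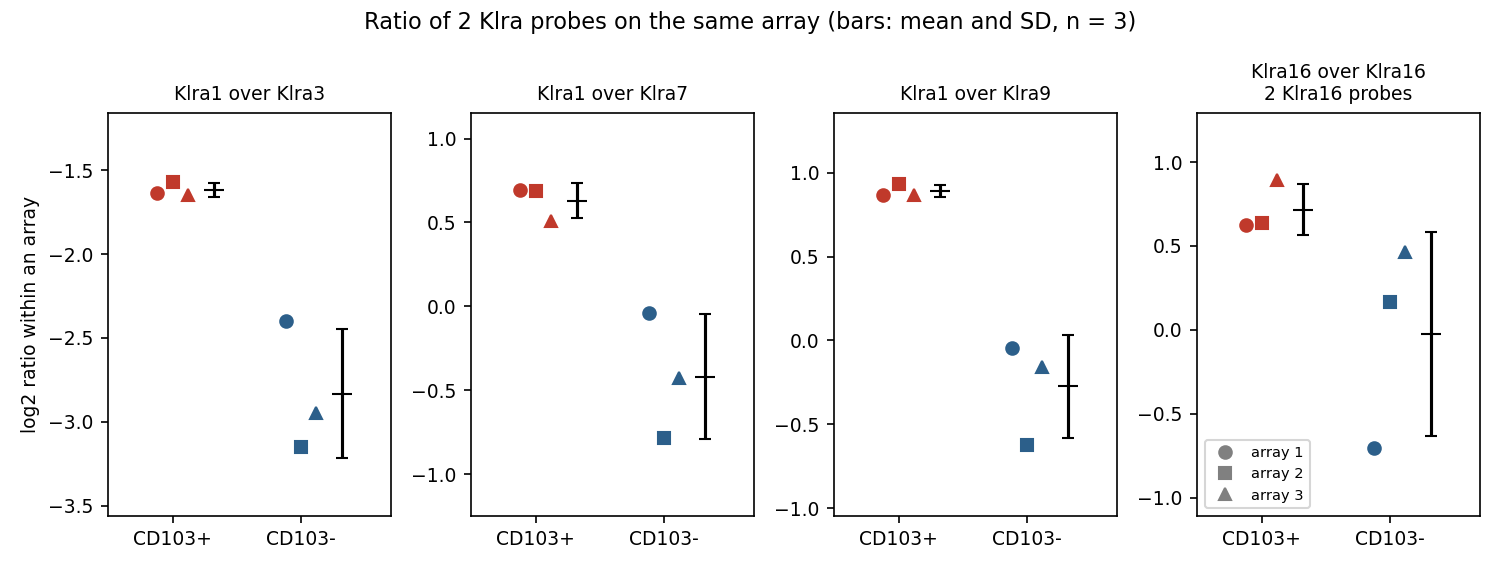
Log2 ratio of 2 Klra probes on the same array, CD103+ (red, left) and CD103- (blue, right), with the mean and SD of 3 arrays. The Klra1 ratios to Klra3, Klra7 and Klra9 and the ratio of Klra16 ILMN_3005175 to ILMN_1229795 are higher on every CD103+ array.

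The genes of the C57BL/6J cluster follow each other on chromosome 6, with 13 Klra genes and pseudogenes in the RefSeq table for GRCm38.p6, of which 8 are among the 10 listed. Klra1 stands at one end of this order, next to Klra3, and Klra17 at the other. Klra2, which comes after Klra1 on chromosome 6, was not counted in the cluster. Of the genes counted, Klra1 alone had a probe that passed. The passing Klra16 and Klra22 probes have no place in this order under those names, and which transcripts they bind was not tested. Klra3, the neighbour of Klra1, lay at 0.20 and -0.01. The next coding gene, Klra10, which was not listed, lay at 0.02 (95% interval -0.37 to 0.41, adjusted p = 0.968).

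**Figure D4:**
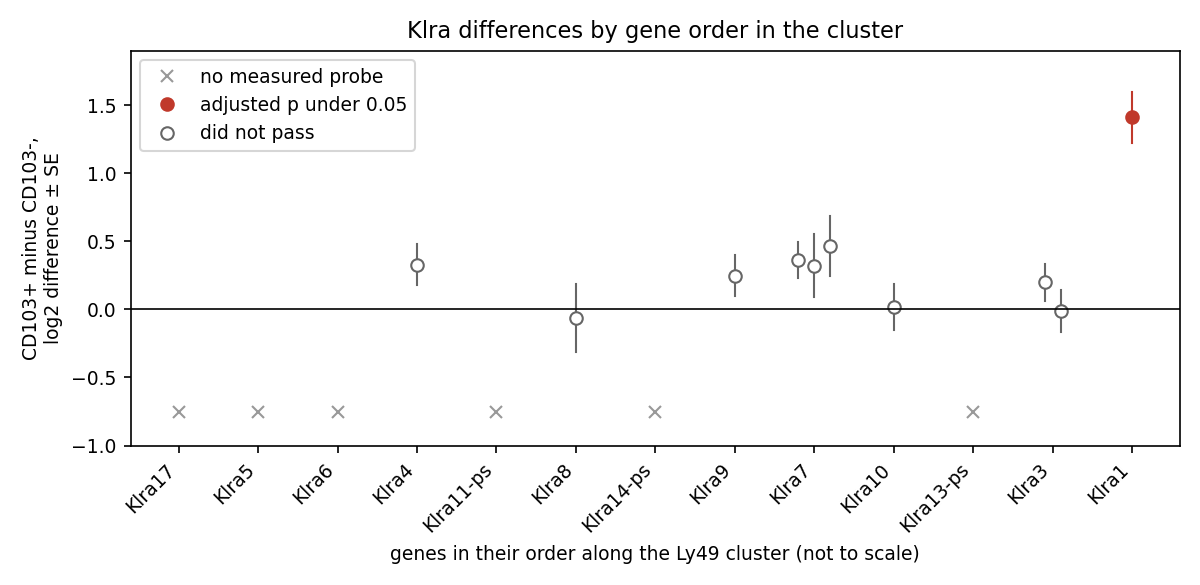
Log2 difference, CD103+ minus CD103-, with its SE, for each measured probe of the Klra genes placed in the cluster. Genes stand in their order along it, not to scale. Klra16 and Klra22, which have no place in this order under these names, are not drawn. Klra1 at the right end lies at 1.41, and the other measured genes drawn lie between -0.06 and 0.46.

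RefSeq start regions, from 250 bases before to 50 after an annotated start, were held for 8 of the 10 genes. They are shown for Klra1, which passed, and for Klra3 and Klra7, which did not, because the Klra1 region shares little with them. In the Klra3 and Klra7 lines capitals mark GAGTATCAC, the longest run common to 8 start regions of Klra3, Klra5, Klra6, Klra7, Klra8, Klra9 and Klra17. In the Klra1 line they mark TGTGGT, a core that RUNX factors bind. The Klra1 region and a second Klra7 region were left out of the search for GAGTATCAC. The run therefore does not test how these regions differ from the 8.
Klra1, chr6:130386825-130387124, minus strand: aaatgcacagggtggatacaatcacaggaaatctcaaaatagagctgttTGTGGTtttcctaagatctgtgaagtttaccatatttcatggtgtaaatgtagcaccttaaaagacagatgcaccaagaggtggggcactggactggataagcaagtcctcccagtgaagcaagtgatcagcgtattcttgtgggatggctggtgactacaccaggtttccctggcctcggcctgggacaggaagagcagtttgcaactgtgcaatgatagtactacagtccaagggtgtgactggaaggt
Klra3, chr6:130337577-130337876, minus strand: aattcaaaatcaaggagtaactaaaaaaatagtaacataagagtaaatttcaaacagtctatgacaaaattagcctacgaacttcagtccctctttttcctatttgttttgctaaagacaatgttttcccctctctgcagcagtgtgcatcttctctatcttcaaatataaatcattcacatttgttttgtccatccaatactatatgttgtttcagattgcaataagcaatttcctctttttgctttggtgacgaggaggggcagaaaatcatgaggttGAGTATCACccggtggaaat
Klra7, chr6:130233273-130233572, minus strand: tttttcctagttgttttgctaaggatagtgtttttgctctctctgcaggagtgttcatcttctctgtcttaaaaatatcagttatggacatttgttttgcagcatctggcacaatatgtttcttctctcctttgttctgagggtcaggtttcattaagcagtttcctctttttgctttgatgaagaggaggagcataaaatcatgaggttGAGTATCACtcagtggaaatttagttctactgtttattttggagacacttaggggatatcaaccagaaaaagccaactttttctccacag
The sequences are RefSeq's for GRCm38.p6. Klra8 had 2 regions, both with the run, and Klra7 a second one, not shown, without it. The 8 regions with the run could be aligned to each other over 175 to 302 positions, with 72.7% to 100% identical bases in local alignments, the 100% being the 2 overlapping regions of Klra8. The Klra1 region aligned with each of the others over 12 to 15 positions only, and the Klra7 region without the run, of a gene that did not pass, over 11 to 29. GAGTATCAC was read on both strands in 0.113% of 32851 start regions of mouse genes. TGTGGT, on either strand, was in the Klra1 region and in none of the other 9, and in 16.8% of all start regions. The TCF and LEF core TCAAAG, on either strand, was in the Klra6 region and in both Klra7 regions, and in 16% of all. The motifs were searched as exact letters and share no bases with each other in these regions, and a match or its absence says nothing of binding. Klra genes have several known promoters, and the region of an annotated start need not be the one used in NKT cells.

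Of the Klra genes not listed, Klra10, which encodes Ly49J, had log2 values of 13.65, 13.61 and 13.51 in CD103+ cells and 13.82, 13.56 and 13.33 in CD103- cells, which overlapped. Klra4 encodes the activating receptor Ly49D, and 1 of its 4 probes was tested. That probe had 6.64, 6.87 and 7.0 in CD103+ cells and 6.47, 6.47 and 6.57 in CD103- cells, a difference of 0.33 (95% interval -0.02 to 0.68, adjusted p = 0.365). The other 3 Klra4 probes and both Klra2 probes, for the myeloid receptor Ly49B, were not detected on any array.

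Signalling partners and ligands of the Ly49 receptors were a list of 15 genes, of which 13 were measured. Where 0.928% of all tested probes were higher, 1 of the 13 was higher and none was lower, with a median log2 difference of -0.12. The higher one was Fcer1g, the gamma chain adaptor of Fc and NK receptors, with 12.55, 12.67 and 12.47 in CD103+ cells and 10.93, 11.10 and 10.86 in CD103- cells (difference 1.60, SE 0.143, adjusted p = 0.00518, and 0.0292 when matched by number). Fcer1g is also a gene of NK and myeloid cells, whose markers are given above. Tyrobp, the DAP12 adaptor of the activating Ly49 receptors, had 7.57, 7.42 and 7.75 in CD103+ cells and 6.40, 5.04 and 6.82 in CD103- cells, and was detected on 2 of the 3 CD103- arrays. Its groups did not overlap, and with the wide spread in CD103- cells it did not pass (difference 1.50, SE 0.423, adjusted p = 0.175). The class I ligands H2-K1 and H2-D1 lay at -0.28 and -0.22 (adjusted p = 0.487 and 0.490).

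Factors reported to act on Ly49 expression were 12 genes, of which 6 were measured and none passed limma's test, with a median of -0.15. Eomes and Runx3 were not detected on any array, and Runx1 lay at -0.71 (adjusted p = 0.160). The other lectin-like receptors of the NK gene complex were 17 genes, of which 14 were measured, 4 were higher and none was lower, with a median of 0.46. Of all tested probes 0.928% were higher, and their median was 0.04. The 4 were Klri2 (difference 2.42, adjusted p = 0.00453), Klrh1, detected on 1 CD103- array, Klrc2, detected on 2, and Klri1, at least 1.34-fold higher against a background level in CD103- cells. Klri1 entered the test only through CD103+ cells, and its other tested probe did not pass (adjusted p = 0.0534, limma). Matched by replicate number, Klri2 and Klrh1 passed. Klrd1, which encodes CD94, lay at 0.06 (adjusted p = 0.870).

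Across the 6 arrays the measured gene most like the brightest Klra probe, Klra3 ILMN_1237580, was Cdc5l, a splicing factor, with a Pearson correlation of 0.979 among 8992 genes compared, followed by Faf1, Chm, Med1 and Dnajc19 at 0.976 to 0.978. These are descriptions of 6 points, taken as the highest of many, and none of the 5 genes passed the test between populations.

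**Figure D5:**
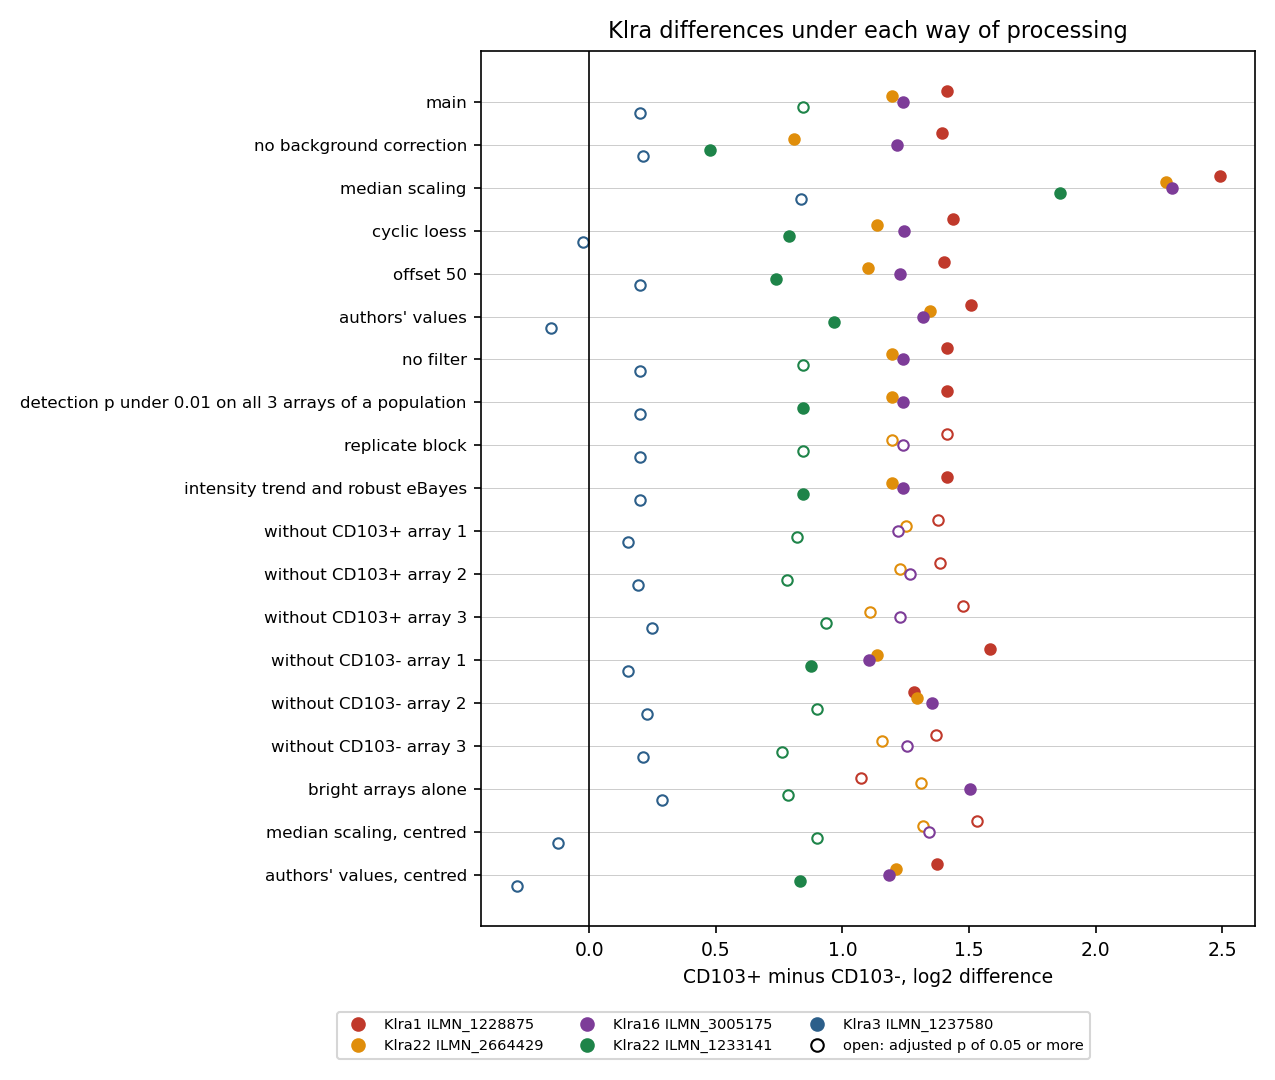
Log2 difference, CD103+ minus CD103-, of 5 Klra probes as processed here and under 18 alternatives, filled where the adjusted p was under 0.05. Klra1, both Klra22 probes and Klra16 ILMN_3005175 stay above 0 under all 18 alternatives, while Klra3 lies on both sides of 0.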

How the data were processed

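Biotin-labelled cRNA from 6 samples was read on Illumina mouse bead arrays, per the labels' protocols. The deposited intensity values are 1 signal per probe and array, not normalized and with background included, per the file headers. The deposited table has a companion column per array, which the file headers call detection p-value. A further table holds log2 values by the authors, with a scaling not given in the sources used here.

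Of 45281 probes, 18 with values shifted by text inside the line were left out. The remaining 45263 were named through a platform annotation and RefSeq symbols, with 1 symbol for 34874, several for 18 and none for 10371. The neqc function (limma 3.58.1, R 4.3.3, offset 16) corrected the background, quantile-normalized and took log2. Testing covered probes detected on 3 or more arrays, detection meaning a detection p under 0.05. The test was two-sided, with lmFit and eBayes and Benjamini-Hochberg adjustment over all 17462, at a threshold of 0.05. The code was tested on simulated data. Levels of different probes were not compared, since probes differ in brightness at equal transcript. Another gene was represented by its tested probe with the highest mean. Start regions were aligned with Biopython 1.88. The number of arrays limits precision, and the median SE was 0.195 log2 units. Nothing in the labels says that the arrays came from separate animals, and p-values then measure the spread between these samples.

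The labels give both populations replicate numbers 1 to 3. Deviations from the population mean correlated at 0.170, 0.125 and 0.305 between arrays of the same number, all above 0.1, and at -0.231 to 0.0824 between others, so the fit with the number as a block is given beside each call it changes.

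The 10 genes and all lists were chosen with earlier results of these data known. Named genes were all probes of the 10 genes, all other Klra probes, up to 4 genes past the threshold per list with Tyrobp, H2-K1 and H2-D1, the check genes Itgae, Klrb1c, Cd44 and Cd3e, and the 5 genes most like the brightest Klra probe. Runx1, Klrd1, Eomes and Runx3 were named after their values were seen. Cd44 lay at -0.10 (adjusted p = 0.794). Marker lists of NKT cells (8 measured), plasmacytoid dendritic cells (7), B cells (1) and granulocytes (3) had no member past the threshold.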

Additional observations from a re-analysis of the deposited data

How the results depend on the processing

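Under 18 alternatives Klra1, Klra16 ILMN_3005175 and both Klra22 probes stayed positive. Klra1 passed in 11, Klra16 ILMN_3005175 in 12, Klra22 ILMN_2664429 in 11 and Klra22 ILMN_1233141 in 9. Each of these probes had its lowest adjusted p with median scaling that was not centred, and none passed once it was centred. The 12 of Klra16 take in the bright arrays alone, a fit with 1 CD103- array and no spread in CD103- cells. Of the 13 tested Klra probes 3 passed as processed here. With the replicate block 0 passed, with median scaling 10 and with the same centred on all tested probes 0. Leaving out 1 array gave 0 to 4. Over all probes 206 passed. The count was 324 without background correction, 7154 with median scaling, 313 in the authors' values, 83 with the replicate block, 369 with an intensity trend and robust variance, 135 with the bright arrays alone, 68 with centred median scaling, and 52 to 857 with 1 array left out. Of the lists of partners, factors and lectin-like receptors, 5 genes passed. There were 16 with median scaling, 3 with the replicate block, 3 with centred median scaling, and 3 to 6 with 1 array left out. The median of all tested probes was 0.96 with median scaling and 0.13 in the authors' values, against 0.04 as processed here, so their centred forms, added after seeing the data, are the ones to compare, and the Klra1 difference was then 1.53 and 1.37. The share of calls higher in CD103+ cells was 78.6% as processed here, 63.9% without background correction, 68.6% with an offset of 50, 64.0% with cyclic loess, 99.8% with median scaling, 64.7% with this centred and 63.4% with the authors' values centred. The differences of Klra3 ILMN_1237580, Klra3 ILMN_2716458, Klra7 ILMN_1241930, Klra8 and Klra16 ILMN_2724548 changed sign under some alternatives and passed in 0, 0, 1, 0 and 1 of them. The cause of each of these shifts was not tested.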

Other observations

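Over the 13 tested Klra probes the deviations of arrays from their population mean were alike between arrays of the same replicate number. The correlations across these probes, which may share transcripts and are no independent points, were 0.560, 0.275 and 0.617 for numbers 1, 2 and 3. Between arrays of different numbers they were -0.598 to 0.156. Deviations from a mean of 3 arrays are tied, so positive values for the same number draw the others down. The SE was lower with the replicate block for 10 of the 13 probes. Klra16 ILMN_1229795 had its highest value on array 1 and its lowest on array 3 in both populations. So did Klra3 ILMN_2716458, Klra7 ILMN_1241930 and Klra9.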
